A study of Arabidopsis thaliana with 12 samples.

Results

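Jasmonate synthesis and the vegetative storage proteins were followed through 7 Arabidopsis thaliana genes. These were LOX2 (AT3G45140), AOS (AT5G42650), AOC1 (AT3G25760), AOC2 (AT3G25770) and OPR3 (AT2G06050) of the synthesis pathway, and the storage protein genes VSP1 (AT5G24780) and VSP2 (AT5G24770). They were taken by gene identifier from a count table of 23174 genes, and all 7 passed the filter on low counts that left 16636 genes. RNA came from rosette leaves of plants of the Col-0 ecotype, 3 weeks old and raised on soil at 23 °C. The 4 groups, each of 3 libraries, were atcyp18-2 after 1 h at 47 °C, atcyp18-2 without heat, wild type (WT) after 1 h at 47 °C and WT without heat. The mutant is named for AtCYP18-2 (AT2G36130), a cyclophilin, and the labels give neither its allele nor the number of lines. Column headers call the libraries without heat 0 h, so heat and the hour that passed cannot be told apart where controls were taken at the start. No label ties the libraries to separate plants, so a p-value reflects no more than the spread among these libraries, which may be technical.

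Jasmonates are lipid hormones made from linolenic acid of chloroplast membranes. The lipoxygenase LOX2, the allene oxide synthase AOS and the allene oxide cyclases AOC1 and AOC2 act in the chloroplast and yield OPDA, which the reductase OPR3 acts on in peroxisomes before side-chain shortening gives jasmonic acid. The conjugate with isoleucine is bound by the receptor COI1 together with JAZ repressors, whose loss frees MYC transcription factors. VSP1 and VSP2 encode acid-phosphatase-like proteins stored in the vacuole, and both are classical markers of wounding and jasmonate in leaves.

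All 7 transcripts used were found by their identifier in the RefSeq annotation of TAIR10.1, a build that may differ from the authors' own, which is not given in the sources used here. The transcript used for LOX2, AT3G45140.2, lies at chr3:16525311-16529352 on the plus strand with 7 exons, and AOS at chr5:17097564-17099595 on the minus strand with 1 exon. AOC1 and AOC2, of 2 exons each, are neighbours on the plus strand at chr3:9403779-9405338 and chr3:9406669-9408071. OPR3 lies at chr2:2359114-2362375 on the minus strand with 5 exons. VSP1 and VSP2, of 3 exons each, are on the minus strand at chr5:8507590-8509201 and chr5:8500468-8502224.

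The 300 bases before the annotated gene start, the most upstream start of any transcript of the gene, are shown for LOX2 (chr3:16524945-16525244, plus strand) and AOS (chr5:17099596-17099895, minus strand), the synthesis genes whose windows held a searched motif, in capitals. For LOX2 that start belongs to another transcript and lies upstream of the start of AT3G45140.2. They are also shown for VSP1 (chr5:8509202-8509501, minus strand) and VSP2 (chr5:8502225-8502524, minus strand), whose levels are described together below, with the longest run the pair shares in capitals (23 bases).
LOX2 promoter window: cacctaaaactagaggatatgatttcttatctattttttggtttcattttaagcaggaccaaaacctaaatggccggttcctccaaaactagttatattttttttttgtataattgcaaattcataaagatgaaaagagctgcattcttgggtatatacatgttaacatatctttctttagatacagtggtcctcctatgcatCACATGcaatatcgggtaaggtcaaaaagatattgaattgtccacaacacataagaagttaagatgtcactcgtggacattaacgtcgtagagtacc
AOS promoter window: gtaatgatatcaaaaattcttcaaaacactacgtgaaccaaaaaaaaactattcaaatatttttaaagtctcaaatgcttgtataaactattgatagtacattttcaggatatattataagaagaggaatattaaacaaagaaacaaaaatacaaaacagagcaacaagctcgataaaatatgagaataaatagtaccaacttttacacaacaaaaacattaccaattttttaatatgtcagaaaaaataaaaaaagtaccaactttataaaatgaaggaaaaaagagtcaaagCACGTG
VSP1 promoter window: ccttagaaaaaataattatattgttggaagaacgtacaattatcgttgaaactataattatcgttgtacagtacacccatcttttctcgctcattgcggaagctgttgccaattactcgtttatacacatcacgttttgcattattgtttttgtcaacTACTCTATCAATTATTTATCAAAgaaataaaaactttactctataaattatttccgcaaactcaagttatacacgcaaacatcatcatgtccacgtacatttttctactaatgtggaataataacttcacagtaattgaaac
VSP2 promoter window: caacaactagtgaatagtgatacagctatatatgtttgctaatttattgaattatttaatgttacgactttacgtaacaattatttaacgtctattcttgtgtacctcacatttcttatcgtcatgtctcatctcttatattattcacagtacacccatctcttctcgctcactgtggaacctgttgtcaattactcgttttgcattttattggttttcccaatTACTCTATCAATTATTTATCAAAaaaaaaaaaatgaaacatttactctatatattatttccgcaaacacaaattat
Of the 7 windows, 1 held CACGTG, the G-box that MYC factors can bind, in AOS with its last base next to the gene start. This motif was in 7.77% of 22944 promoters of the same length. The related CACATG was in LOX2 alone, starting 97 bases before the gene start, against 13% of all promoters. GCCGCC was in none of the 7 windows and in 2.38% of all, and the heat shock element, searched as alternating GAA, TTC and GAA blocks with a pair of free bases between neighbours, was in none of the 7 and in 0.501% of all. Both strands were searched, each of these windows had 1 match, so no motifs overlapped, and a match is only a match of letters.

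Some of the 7 genes are similar in sequence, which bears on how far their counts can be told apart. AOC1 and AOC2 share 90.29% of aligned coding bases, with a longest common run of 47 bases. VSP1 and VSP2 share 89.47%, with a run of 54 bases. These coding stretches are printed with the bases that differ between the pair in capitals, for AOC1 (chr3:9404914-9404984) and AOC2 (chr3:9407648-9407718) on the plus strand and VSP1 (chr5:8508582-8508659) and VSP2 (chr5:8501552-8501629) on the minus strand.
AOC1 coding stretch: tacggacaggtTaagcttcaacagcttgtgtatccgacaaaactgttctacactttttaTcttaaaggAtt
AOC2 coding stretch: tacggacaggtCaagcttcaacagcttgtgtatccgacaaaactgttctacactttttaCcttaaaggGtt
VSP1 coding stretch: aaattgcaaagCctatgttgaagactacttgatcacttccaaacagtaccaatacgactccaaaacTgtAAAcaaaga
VSP2 coding stretch: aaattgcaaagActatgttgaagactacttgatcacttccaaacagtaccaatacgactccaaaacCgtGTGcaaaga
No 50-base window of AOC1 was found in AOC2, while 0.394% of the 50-base windows of VSP1 were found in VSP2. How the authors' counting treated reads that match both genes of a pair is not given in the sources used here, so the split within each pair is uncertain. AOC1 also shares a run of 73 bases with AOC3, a further cyclase gene.

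Summed over the 1 transcript used per gene, libraries held 9075387 to 12493977 reads, of which 2572364 to 4348395 came from nuclear genes. These sums are the library totals used throughout. The chloroplast transcript psbA, of photosystem II, took 37.7, 26.7 and 36.2% of these totals in atcyp18-2 heat, 22.0, 28.7 and 31.2% in atcyp18-2 control, 38.6, 37.0 and 26.6% in WT heat and 23.7, 22.0 and 32.6% in WT control (replicates 1, 2 and 3). AtCYP18-2 was detected at 1.98 to 4.01 CPM (reads of a gene scaled by library total and TMM factor, as CPM throughout) in heated and 0.883 to 0.978 CPM in control atcyp18-2 leaves, against 5.44 to 7.36 CPM in heated and 5.51 to 6.22 CPM in control WT leaves. The 3 mesophyll markers summed to 9809 to 17421 CPM over all libraries. Flower markers, 4 genes, summed to at most 1.51 CPM, and the 1 of 3 seed markers in the table to at most 0.335 CPM. Root markers, 2 genes, summed to 10.05 to 16.8 CPM in atcyp18-2 heat and 20.8 to 32.4 CPM in atcyp18-2 control, and to 9.23 to 21.0 CPM in WT heat and 22.7 to 53.5 CPM in WT control. Guard cell markers, 3 genes, summed to 4.87 to 5.78 CPM in atcyp18-2 heat and 5.98 to 9.63 CPM in atcyp18-2 control, and to 4.66 to 5.94 CPM in WT heat and 6.49 to 9.13 CPM in WT control. Phloem markers, 2 genes, spanned 56.7 to 105 CPM, and in WT they went opposite ways with heat. SULTR2.1 (AT5G10180) was called lower, at 26.0 ± 0.711 CPM after heat and 35.3 ± 0.433 CPM without. SUC2 (AT1G22710) was not called, at 41.7 ± 9.88 CPM after heat and 35.9 ± 12.4 CPM without. Of the guard cell markers KAT1 (AT5G46240) was called lower with heat in WT and the other 2 were not. No phloem or guard cell marker was called with heat in atcyp18-2. PYK10 (AT3G09260) made up nearly all of the root sum, as the other root marker, TIP2.3 (AT5G47450), reached at most 0.167 CPM in any library. PYK10 fell with heat by 1.04 ± 0.35 in atcyp18-2 and 1.44 ± 0.34 in WT on the log2 scale. The part of these shifts in the results below was not tested. In bulk leaves fewer cells of a type and less RNA per cell cannot be told apart.

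LOX2 was the most abundant of the 7 transcripts per length, in every group. Its level per kilobase of transcript averaged 28.2 ± 8.32 CPM in atcyp18-2 heat, 75.8 ± 40.5 CPM in atcyp18-2 control, 43.1 ± 10.8 CPM in WT heat and 93.4 ± 79.6 CPM in WT control (SD, n = 3 each, as throughout). AOS came second in each group, at 10.48 ± 0.575, 17.01 ± 10.7, 14.2 ± 2.54 and 15.7 ± 4.92 CPM per kilobase in the same group order. In heated leaves OPR3 (7.20 ± 2.53 CPM per kilobase in atcyp18-2, 5.51 ± 1.19 in WT) preceded VSP2 (4.01 ± 1.30 in atcyp18-2, 5.31 ± 2.95 in WT). In control leaves VSP2 (16.0 ± 10.7 CPM per kilobase in atcyp18-2, 10.496 ± 10.3 in WT) preceded OPR3 (6.31 ± 3.76 in atcyp18-2, 6.42 ± 2.85 in WT). VSP1 was lowest in heated leaves, at 0.654 ± 0.287 CPM per kilobase in atcyp18-2 and 0.567 ± 0.609 in WT, and above both cyclases in control leaves, at 4.08 ± 3.30 in atcyp18-2 and 2.76 ± 3.30 in WT. AOC2 stood between 2.15 and 2.53 and AOC1 between 0.657 and 1.13 CPM per kilobase over the group means. In control leaves, all neighbours in this order lay within 1 SD ranges that overlap, with the exception of LOX2 and AOS in atcyp18-2. In heated leaves of both genotypes LOX2 and AOS, AOS and OPR3, and AOC2 and AOC1 had ranges of 1 SD that did not overlap, and the other neighbours overlapped.

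**Figure D1:**
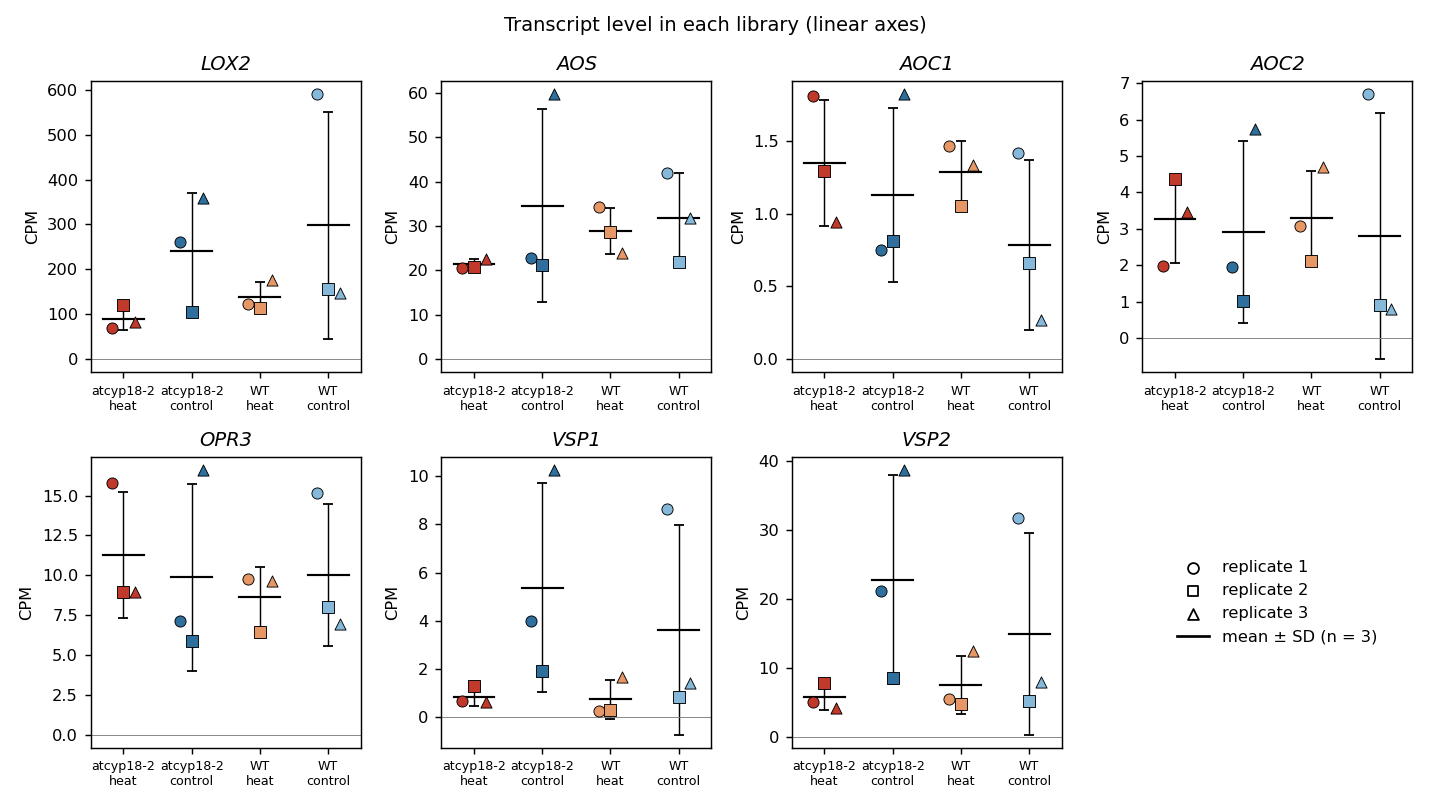
Transcript level in CPM (linear axes) of the 7 genes in each of the 12 libraries, with 1 panel per gene and the groups atcyp18-2 heat, atcyp18-2 control, WT heat and WT control from left to right. Symbols are replicates 1, 2 and 3 and bars are the mean ± SD (n = 3), and in every panel WT control replicate 1 and atcyp18-2 control replicate 3 are the highest of their group.

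LOX2, which makes the hydroperoxide that feeds the pathway, had 68.0, 119 and 81.9 CPM in atcyp18-2 heat replicates 1, 2 and 3, against 261, 103 and 359 CPM in atcyp18-2 control. In WT it had 122, 113 and 177 CPM after heat, against 590.3, 155 and 147 CPM without heat. The control groups thus spread 3.48-fold in atcyp18-2 and 4.01-fold in WT, and heated and control libraries overlapped in both genotypes. LOX2 rested on 413 to 8731 reads per library, so counting error is small beside this spread.

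AOS, which turns that hydroperoxide into an allene oxide, had 20.6, 20.6 and 22.6 CPM in atcyp18-2 heat, against 22.7, 21.3 and 59.7 CPM in atcyp18-2 control. In WT heat AOS was at 34.2, 28.6 and 23.9 CPM, against 41.9, 21.9 and 31.7 CPM in WT control. A single atcyp18-2 control library, replicate 3, therefore held most of the distance between the means of heated and control mutant leaves. AOC2 had 1.98, 4.37 and 3.46 CPM in atcyp18-2 heat, against 1.96, 1.02 and 5.74 CPM in atcyp18-2 control, and 3.08, 2.104 and 4.69 CPM in WT heat, against 6.69, 0.904 and 0.800 CPM in WT control. AOC1 was the least abundant member of the synthesis pathway followed here, with 3 to 21 reads per library, and ranged from 0.943 to 1.81 CPM in atcyp18-2 heat, 0.753 to 1.83 CPM in atcyp18-2 control, 1.05 to 1.47 CPM in WT heat and 0.267 to 1.42 CPM in WT control. Heated and control libraries overlapped for AOS, AOC1 and AOC2 in both genotypes.

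OPR3, the peroxisomal reductase, had 15.8, 8.97 and 8.96 CPM in atcyp18-2 heat, against 7.15, 5.84 and 16.6 CPM in atcyp18-2 control. In WT it had 9.76, 6.46 and 9.62 CPM after heat, against 15.1, 8.01 and 6.94 CPM without heat. Heated and control libraries of OPR3 overlapped in both genotypes too.

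VSP2 had 5.11, 7.79 and 4.25 CPM in atcyp18-2 heat, against 21.1, 8.49 and 38.7 CPM in atcyp18-2 control. In WT it had 5.48, 4.81 and 12.4 CPM after heat, against 31.7, 5.18 and 7.92 CPM without heat. VSP1 had 0.659, 1.30 and 0.629 CPM in atcyp18-2 heat (4 to 11 reads), against 3.99, 1.90 and 10.3 CPM in atcyp18-2 control (28 to 118 reads). In WT heat VSP1 was at 0.267, 0.301 and 1.67 CPM (2 to 20 reads), against 8.65, 0.843 and 1.42 CPM in WT control (14 to 128 reads). Every heated atcyp18-2 library lay below every control atcyp18-2 library for both storage protein genes, whereas heated and control WT libraries overlapped. Of all tested genes 23.3% had every heated library below every control in atcyp18-2, and 19.2% in WT. The ratio of VSP2 to VSP1 reads, summed over a group, was 6.53 in atcyp18-2 heat, 4.28 in atcyp18-2 control, 9.21 in WT heat and 4.08 in WT control, so VSP2 exceeded VSP1 in each group.

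With heat VSP2 fell in atcyp18-2, and no other of the 7 genes passed the test. VSP2 fell by 1.94 ± 0.69 on the log2 scale (± SE, 95% interval -3.43 to -0.45, edgeR quasi-likelihood test, adjusted p = 0.0464). LOX2 was at -1.42 ± 0.53 (adjusted p = 0.0571), VSP1 at -2.37 ± 0.92 (adjusted p = 0.0675) and AOS at -0.69 ± 0.36 (adjusted p = 0.159) in the same edgeR fit. AOC1, AOC2 and OPR3 had log2 fold changes of 0.32 ± 0.48, 0.24 ± 0.75 and 0.20 ± 0.41. The count of 1 of 7 genes called (adjusted p under 0.05, Benjamini-Hochberg over all genes) stands beside 32.2% of all genes tested, or 15.3% called lower and 16.9% called higher. Their median log2 fold change was -0.69, against -0.01 over all genes. VSP1 and VSP2 were the 2 genes whose heated libraries all lay below all controls, as did 23.3% of all genes, and none had all heated libraries above, as 21.8% of all genes did. An unadjusted p under 0.05 was reached by 3 of the 7 in edgeR and by 4 in DESeq2.

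This call of VSP2 was a narrow one. It passed in 5 of the 12 edgeR fits that each left out 1 library. Without atcyp18-2 control replicate 3 the log2 fold change was -1.33 (adjusted p = 0.189) in the edgeR test, with LOX2 at -1.02, VSP1 at -1.52 and AOS at -0.042. Leaving out atcyp18-2 control replicate 1 gave adjusted p = 0.0686 (edgeR), and atcyp18-2 heat replicates 1, 2 and 3 gave 0.121, 0.0661 and 0.129. Leaving out WT heat replicate 1 or 2, which are not in this contrast but enter the filter and the shared spread, gave edgeR adjusted p = 0.0544 or 0.0534. With the replicate number as a block 0 of 7 genes were called (VSP2 at adjusted p = 0.0914, edgeR). DESeq2 called 3 of the 7 genes lower (LOX2, VSP1 and VSP2), beside 5346 of 18680 genes called in either direction and 3130 called lower. The edgeR fit with the psbA share as a covariate called 4 lower (LOX2, AOS, VSP1 and VSP2). Beside them stood 8265 of 16636 genes in either direction, 4068 of them lower. The psbA share ran from 26.7 to 37.7% in heated and 22.0 to 31.2% in control atcyp18-2 libraries. This covariate is thus partly tied to heat.

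None of the 7 genes passed the same test for heat in WT. On the log2 scale VSP1 was at -1.93 ± 0.91 (edgeR, adjusted p = 0.146), LOX2 at -1.12 ± 0.53 (adjusted p = 0.148) and VSP2 at -0.93 ± 0.66 (adjusted p = 0.338). AOS was at -0.14 ± 0.35, OPR3 at -0.21 ± 0.40, AOC2 at 0.27 ± 0.73 and AOC1 at 0.68 ± 0.48. Thus 0 of 7 genes were called, against 23.5% of all genes tested (13.2% higher, 10.3% lower), with 0 at an unadjusted p under 0.05 in edgeR. DESeq2 called 0 as well, though 2 of the 7 reached an unadjusted p under 0.05 there. Their median was -0.21, against -0.02 over all genes. None of the 7 had WT groups without overlap, which 19.2% of all genes had with heat lower and 18.6% with heat higher. The lower values of LOX2 and the storage protein genes rested on 1 control library. Without WT control replicate 1, LOX2 was at -0.13, VSP1 at -0.27 and VSP2 at 0.27. Without that library AOS (0.11) and OPR3 (0.22) also changed sign, and AOC2 was at 1.90.

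Scaling moved the heat responses of both genotypes. Scaled to library totals, which chloroplast reads dominate, the median log2 fold change of all genes was -0.76 in atcyp18-2 and -0.77 in WT. Under that scaling 4 of 7 genes were called lower in atcyp18-2 (LOX2, AOS, VSP1 and VSP2) and 3 in WT (LOX2, AOS and VSP1), while overall 1010 genes were called higher and 7409 lower in atcyp18-2 (2812 and 2546 with TMM), and 799 higher and 7500 lower in WT (2200 and 1711 with TMM). DESeq2, which differed in both scaling and gene set (18680 genes), put the median of all genes at -0.16 in atcyp18-2, with 2216 higher and 3130 lower, and at -0.13 in WT. With TMM kept but without the filter on low counts, 1717 genes were higher and 2019 lower in WT, and 2184 and 2860 in atcyp18-2. The parts of scaling and of gene set in the DESeq2 values were not tested. The positive values of AOC1 and AOC2 turned negative under library totals in both genotypes, and that of OPR3 in atcyp18-2.

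**Figure D2:**
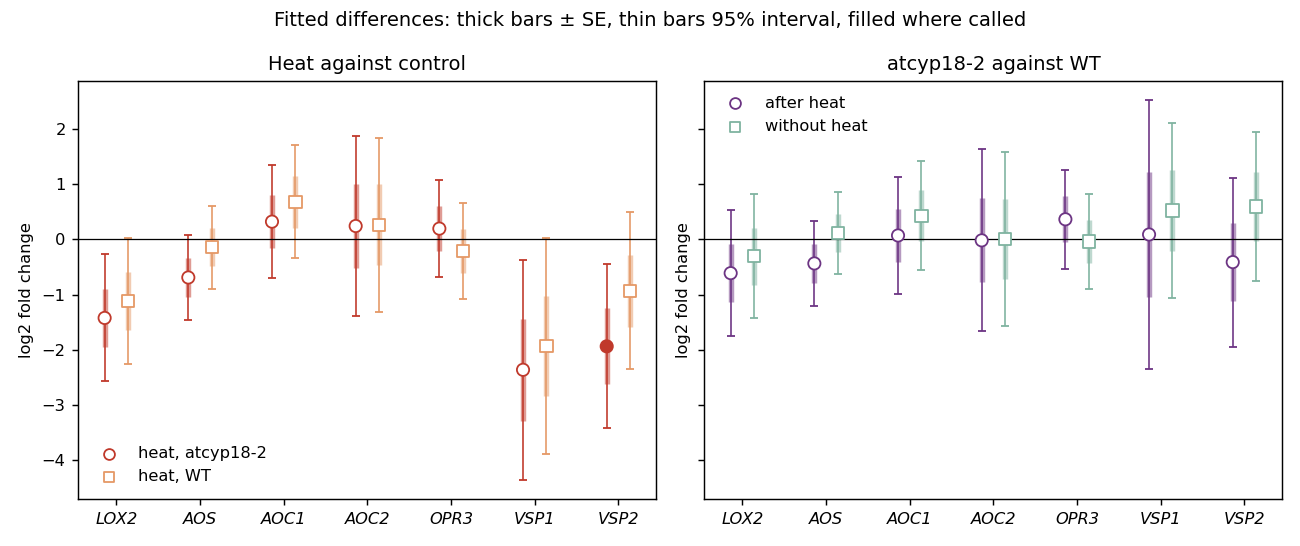
Fitted log2 fold changes of the 7 genes for heat against control (left, atcyp18-2 circles and WT squares) and for atcyp18-2 against WT (right, after heat circles and without heat squares). Thick bars are ± SE, thin bars the 95% interval, and filled symbols passed an adjusted p of 0.05, which VSP2 with heat in atcyp18-2 alone did.

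Without heat the genotypes were not told apart at any of the 7 genes. The log2 fold change of atcyp18-2 over WT was 0.60 ± 0.63 for VSP2, 0.53 ± 0.73 for VSP1, 0.43 ± 0.46 for AOC1, 0.11 ± 0.35 for AOS, 0.01 ± 0.73 for AOC2, -0.04 ± 0.39 for OPR3 and -0.30 ± 0.52 for LOX2. None was called (0 of 7, against 0.024% of all genes, 0.018% higher and 0.00601% lower), with 0 at an unadjusted p under 0.05 in edgeR and 0 called by DESeq2. None of the 7 had genotypes without overlap, against 3.64% of all genes higher and 3.08% lower in atcyp18-2. The intervals are wide. That of VSP1 ran from -1.06 to 2.12 and that of LOX2 from -1.43 to 0.82. LOX2 was at 0.67 without WT control replicate 1 and at -0.70 without atcyp18-2 control replicate 3, so its sign hung on those libraries.

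After heat 0 of 7 genes were called between genotypes, against 0.222% of all genes (0.162% higher, 0.0601% lower), again with 0 at an unadjusted p under 0.05 in edgeR and 0 called by DESeq2. In this comparison DESeq2 gave an adjusted p to only 11491 genes. LOX2 was at -0.61 ± 0.53 in atcyp18-2 over WT (95% interval -1.75 to 0.53), AOS at -0.44 ± 0.36 and VSP2 at -0.41 ± 0.71. OPR3 was at 0.37 ± 0.41, VSP1 at 0.09 ± 1.13, AOC1 at 0.07 ± 0.49 and AOC2 at -0.02 ± 0.76. AOS was the only gene of the 7 whose 3 atcyp18-2 libraries all lay below the 3 WT libraries, as did 7.14% of all genes, and none lay wholly above, as 7.74% did. The difference of the heat response, atcyp18-2 minus WT, was -1.01 ± 0.94 for VSP2, -0.44 ± 1.35 for VSP1, -0.31 ± 0.74 for LOX2 and -0.55 ± 0.50 for AOS, and called 0 of 7 genes. AOC1 and AOC2 were negative too and OPR3 was positive, so 6 of the 7 lay below 0, with a median of -0.36. Over all genes 0 (0%) were called by edgeR for this difference, and DESeq2 called 20 of the 9245 genes to which it gave an adjusted p. The call of VSP2 in atcyp18-2 and its absence in WT are therefore not shown to differ.

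Within the control groups the 7 genes were high in the same libraries. In WT control all 7 were highest in replicate 1, where 28.6% of all tested genes were highest, and in atcyp18-2 control all 7 were highest in replicate 3, against 28.7% of all genes. In heated leaves 4 of 7 were highest in atcyp18-2 replicate 2 (39.3% of all genes) and 4 of 7 in WT replicate 3 (39.9%). The psbA share was 31.2% in that atcyp18-2 control library, the highest of its group, and 23.7% in WT control replicate 1, the middle of its group. In heated leaves the same replicates, atcyp18-2 2 and WT 3, had the lowest psbA shares of their groups, 26.7 and 26.6%, and the part of this in the levels was not tested. The pooled SD within groups, in log2 CPM, was 0.78 for LOX2, 0.49 for AOS, 0.54 for AOC1, 1.02 for AOC2, 0.56 for OPR3, 1.11 for VSP1 and 0.95 for VSP2, with a median of 0.78 against 0.33 over all tested genes. Variation within groups made up 48.9% (VSP1) to 92.4% (OPR3) of a gene's sum of squares, against a median of 50.6% over all genes. As a description over the 12 libraries, deviations from group means correlated at r = 0.99 between VSP1 and VSP2 and at r = 0.955 between LOX2 and VSP2, while LOX2 and AOS had the lowest r of the 21 pairs, 0.60. The libraries share depth and scaling, and the genes of a similar pair may share reads. Of the 50-base windows of VSP1, 0.394% were found in VSP2, and the part of shared reads was not tested.

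**Figure D3:**
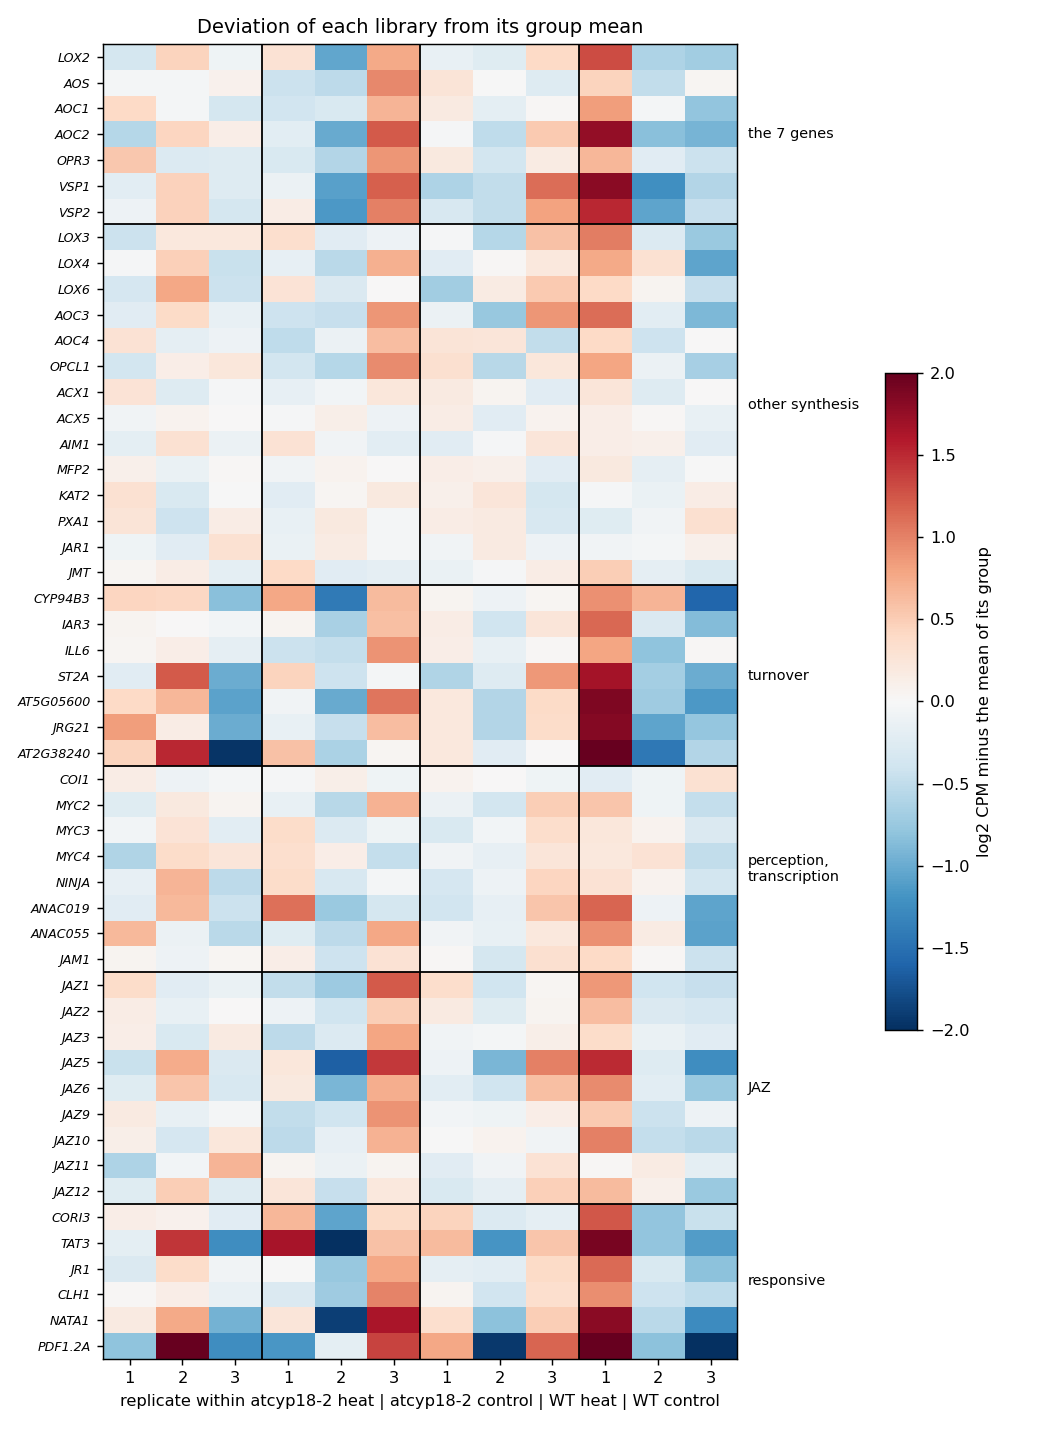
Deviation of each library from its group mean in log2 CPM (colour, blue lower and red higher) for the 7 genes and 44 other tested jasmonate genes in rows, with replicates 1 to 3 of atcyp18-2 heat, atcyp18-2 control, WT heat and WT control in columns. WT control replicate 1 is the highest of its group for all 7 genes and 38 of the 44 others, and atcyp18-2 control replicate 3 for all 7 and 24 of the 44. Of all tested genes 28.6% and 28.7% were highest in these libraries.

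Across the wider pathway the same libraries were most often the highest, most clearly in WT control. Of 44 other tested jasmonate genes 38 were highest in WT control replicate 1, against 28.6% of all tested genes. In atcyp18-2 control 24 were highest in replicate 3, against 28.7% of all genes, and 15 in replicate 1. Of the heated libraries 25 were highest in atcyp18-2 replicate 2 (39.3% of all genes) and 28 in WT replicate 3 (39.9%). By list, WT control replicate 1 was highest for 11 of 14 other synthesis genes, 7 of 7 turnover genes, 6 of 8 perception and transcription genes, 8 of 9 JAZ repressors and 6 of 6 other responsive genes. In atcyp18-2 control, replicate 3 was highest for 6 of 14 other synthesis genes, where replicates 1 and 2 had 4 each. It was also highest for 4 of 7 turnover genes, 7 of 9 JAZ repressors and 4 of 6 other responsive genes. For perception and transcription, replicate 1 was highest for 4 of 8 and replicate 3 for 3 of 8. No label gives a harvest time, position or batch for these libraries, and the cause was not tested.

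Of 14 other tested synthesis genes 3 rose and 1 fell with heat in atcyp18-2, where 16.9% of all genes were called higher and 15.3% lower, and 2 rose in WT, where 13.2% of all genes were called higher. These shares lie near those of all genes. KAT2 and ACX1 rose in both genotypes. KAT2 (AT2G33150), the thiolase of peroxisomal beta-oxidation, averaged 127 ± 26.6 CPM in atcyp18-2 heat and 49.4 ± 7.28 CPM in atcyp18-2 control, or 1.36 ± 0.20 on the log2 scale with adjusted p = 0.000243 by edgeR. In WT it averaged 119 ± 24.9 CPM after heat and 42.3 ± 4.27 CPM without, a log2 change of 1.496 ± 0.20 with adjusted p = 0.000156 by edgeR. The acyl-CoA oxidase ACX1 (AT4G16760), of the same spiral, rose by 1.36 ± 0.19 in atcyp18-2 and 1.19 ± 0.19 in WT. ACX5 (AT2G35690) rose by 0.64 ± 0.17 in atcyp18-2. JAR1 (AT2G46370), which joins jasmonic acid to isoleucine, fell by 0.48 ± 0.17 in atcyp18-2 (edgeR adjusted p = 0.0474). The median log2 fold change of this list was 0.26 in atcyp18-2 and 0.04 in WT. Beta-oxidation also serves fatty acid breakdown, so these genes are not particular to jasmonate. With library totals 2 rose and 3 fell in atcyp18-2, 1 rose and 6 fell in WT, and ACX5 turned to -0.11.

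Of 7 tested turnover genes 1 rose in each genotype, beside 16.9% of all genes called higher in atcyp18-2 and 13.2% in WT. This gene was the amidohydrolase ILL6 (AT1G44350), which releases jasmonic acid from its conjugate. ILL6 rose by 1.58 ± 0.40 in atcyp18-2 and 1.21 ± 0.40 in WT. IAR3 (AT1G51760), the most abundant of that list and a related amidohydrolase, was at 0.65 ± 0.44 in atcyp18-2 and 0.45 ± 0.43 in WT. Of 8 tested perception and transcription genes 2 rose and 1 fell in each genotype, beside calls in either direction for 32.2% of all genes in atcyp18-2 and 23.5% in WT. MYC4 (AT4G17880), a MYC activator, averaged 4.40 ± 1.55 CPM in atcyp18-2 heat and 19.5 ± 5.44 CPM in atcyp18-2 control, and 5.85 ± 0.970 CPM in WT heat and 25.2 ± 6.89 CPM in WT control. It fell by 2.09 ± 0.31 in atcyp18-2 and by 2.07 ± 0.29 in WT on the log2 scale. The NAC factor ANAC055 (AT3G15500) rose by 2.02 ± 0.48 in atcyp18-2 and 2.41 ± 0.48 in WT, and JAM1 (AT2G46510), a bHLH repressor of jasmonate responses, by 1.07 ± 0.25 and 0.85 ± 0.24. MYC2 (AT1G32640), the most abundant of the list, was at -0.74 ± 0.34 in atcyp18-2 and -0.79 ± 0.34 in WT without passing.

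Of 9 tested JAZ repressors 2 rose in each genotype, beside 16.9% of all genes called higher in atcyp18-2 and 13.2% in WT, and DESeq2 called JAZ10 alone in both. JAZ10 (AT5G13220) averaged 7.50 ± 1.52 CPM in atcyp18-2 heat and 1.75 ± 0.910 CPM in atcyp18-2 control, and 7.28 ± 0.363 CPM in WT heat and 1.38 ± 1.09 CPM in WT control. It rose by 2.07 ± 0.42 in atcyp18-2 and 2.32 ± 0.43 in WT, and JAZ2 (AT1G74950) by 0.83 ± 0.29 and 0.86 ± 0.29. JAZ9 (AT1G70700), the most abundant repressor, was at 0.66 ± 0.33 in atcyp18-2 and 0.77 ± 0.33 in WT. Of 6 tested other jasmonate-responsive genes 1 fell in each genotype, beside 15.3% of all genes called lower in atcyp18-2 and 10.3% in WT. It was the chlorophyllase gene CLH1 (AT1G19670), which fell by 2.09 ± 0.47 in atcyp18-2 and 1.65 ± 0.45 in WT. The lectin gene JR1 (AT3G16470) was at -0.89 ± 0.47 in atcyp18-2 and -0.90 ± 0.47 in WT. Among 5 genes of other oxylipin branches 1 rose and 1 fell in each genotype, beside the same shares of all genes. OPR1 (AT1G76680), a relative of OPR3, rose by 0.94 ± 0.24 in atcyp18-2 and 1.03 ± 0.24 in WT. HPL1 (AT4G15440), annotated as a hydroperoxide lyase gene, fell by 2.90 ± 0.49 in atcyp18-2 and 1.40 ± 0.41 in WT. No gene of these lists was called between genotypes with or without heat, or in the difference of the heat response, by edgeR.

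**Figure D4:**
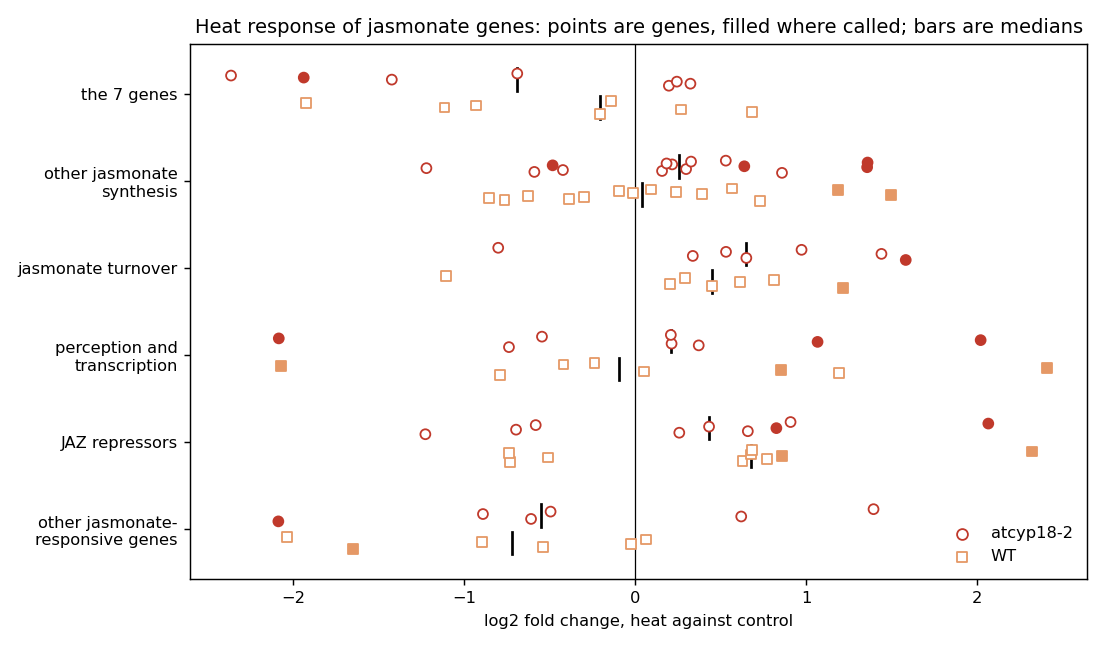
Log2 fold change for heat against control of the 7 genes and 5 lists of other jasmonate genes, with atcyp18-2 as circles above WT as squares in each row. Each point is a gene, filled where the adjusted p was under 0.05, and bars are list medians, and JAZ10 at 2.07 in atcyp18-2 and 2.32 in WT and MYC4 at -2.09 and -2.07 stand at the ends of their rows.

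Some of these calls depended on scaling, on the tool, on the replicate block or on single libraries. DESeq2 did not call JAZ2 in either genotype or ACX5 in atcyp18-2. The replicate block ended the calls of ILL6 in WT and JAR1 in atcyp18-2. Without the filter on low counts JAZ2 was not called in either genotype, nor ACX5 in atcyp18-2, nor ILL6 and JAM1 in WT. JAR1 was also not called with the added read subtracted. With library totals ILL6, JAM1, JAZ2 and OPR1 were not called in either genotype, ANAC055 was not called in atcyp18-2, ACX1 was not called in WT, and MYC4, COI1 and MYC2 were called lower in both. In WT, ILL6 passed in 5, JAZ2 in 5, JAM1 in 8, CLH1 in 9 and HPL1 in 9 of the 12 edgeR fits that left out 1 library. Without WT control replicate 1, CLH1 was at -1.02 (edgeR adjusted p = 0.0981) and HPL1 at -1.14 (adjusted p = 0.098). In atcyp18-2, JAZ2 passed in 5 and JAR1 in 6 of those fits. KAT2, ACX1, MYC4, ANAC055, JAZ10 and OPR1 passed in all 12 in both genotypes.

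Outside the 7 genes, the patterns most like theirs over the 12 libraries were sought among 8782 genes averaging at least 5 CPM, by Pearson's r of log2 CPM. LOX2 was closest to JR1 (r = 0.94), AT4G18440 (r = 0.94) and ARGAH2 (AT4G08870, r = 0.94), an arginase gene. VSP2 was closest to MBP1 (AT1G52040, r = 0.94), a myrosinase-binding protein gene, ARGAH2 (r = 0.94) and JR1 (r = 0.92). AOS was closest to PUB26 (AT1G49780, r = 0.87), CYP79B3 (AT2G22330, r = 0.84) and MBP2 (AT1G52030, r = 0.83). These values describe the ranking of many genes over libraries that share depth and group, and carry no test. The authors' deposited tables of changed genes listed 1649 genes for heat in atcyp18-2, 1020 for heat in WT, 4 for atcyp18-2 against WT after heat and 7 without heat, and none of the 7 genes was among them.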

How the data were processed

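The authors deposited a table of whole-number read counts per transcript, called raw data per the file headers, for 12 libraries of leaf RNA. Per the submitters' processing notes HTSeq and DESeq belong to the pipeline, with neither version nor role stated. No source used here names the aligner, the genome build or the release of the annotation, though a header names Phytozome for the annotation. The lowest deposited count in any library was 1, so 1 added read per row was subtracted from printed reads and CPM. Reads appear to be counted for every transcript of a gene, so the annotated transcript with the highest total was used, where the design had assumed counts per gene. The authors also deposited lists with log2 fold changes and adjusted p-values, used only to look for the 7 genes, and 12 columns of normalized values were not used.

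Counts as deposited were tested in 1 fit of the 12 libraries by quasi-likelihood in edgeR 4.0.16 (R 4.3.3), TMM scaling, filterByExpr by group and a coefficient per group, with 8 residual degrees of freedom and a common BCV (biological coefficient of variation) of 0.231. The fit was tested on simulated data. Printed CPM divide reads by library total times the TMM factor, and log2 CPM for deviations and r have a prior count of 2. Levels per kilobase use the RefSeq TAIR10.1 transcript length. The standard error is the log2 fold change over the root of F, and intervals cover 95%. Alternatives were DESeq2 1.42.0, library totals, nuclear genes, no filter, a replicate block, the psbA share as covariate, leaving out each library and, chosen after seeing the data, the added read subtracted and the lowest-numbered transcript. No pair of libraries of a group agreed within sampling noise (lowest chi-square per degree of freedom 2.69). In each group a single pair was close and the remaining library stood apart. The close pairs were WT heat 1 and 2 (2.69, against 51.8 and 37.8 with replicate 3) and atcyp18-2 heat 1 and 3 (3.21, against 43.0 and 39.4 with replicate 2). In control leaves they were WT 1 and 2 (5.53, against 38.8 and 43.9 with replicate 3) and atcyp18-2 2 and 3 (7.14, against 30 and 28.2 with replicate 1). The cause was not tested. The 7 genes and all lists were chosen with earlier results of these data known. Named genes are the 7, the most abundant gene of each list and up to 3 called genes of each list with the largest change per comparison.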

Additional observations from a re-analysis of the deposited data

How the results depend on the processing

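Over 280 fold changes of the 7 genes refitted under 8 other settings, 254 kept their direction and side of the threshold, 14 changed sign, 11 newly passed and 1 no longer passed. With heat in atcyp18-2 the count of 1 gene called became 3 with DESeq2, 4 with library totals, 4 with the psbA covariate and 0 with the replicate block, and ranged from 0 to 3 when 1 library was left out. In WT the count of 0 became 3 with library totals and stayed 0 without any single library, as did the counts of both genotype comparisons and of the difference of the heat response. With library totals, log2 fold changes for heat in atcyp18-2 were -0.41 for AOC1, -0.46 for AOC2, -0.56 for OPR3 and -0.11 for ACX5, and in WT -0.095 for AOC1 and -0.50 for AOC2. Between genotypes without heat, library totals gave -0.022 for AOS and -0.18 for AOC2, no filter -0.020 for AOC2, and the psbA covariate -0.0064 for AOS. After heat, library totals gave -0.037 for AOC1 and -0.056 for VSP1. For AOC2 the replicate block gave 0.17 after heat and 0.14 for the difference of the heat response, which library totals put at 0.043. The causes were not tested.

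Deviations of same-numbered libraries correlated at -0.65 to 0.51 over all tested genes, so no pairing by replicate number was seen. A weaker shared batch could be missed by this check, as larger differences between libraries can hide it. The block left 4502 genes called with heat in atcyp18-2 and 3044 in WT. Over all genes the psbA covariate called 8265 with heat in atcyp18-2 and 6512 in WT, and 112 for the difference of the heat response, where edgeR without it called 0 and DESeq2 20 of 9245. Library totals called 8419 with heat in atcyp18-2 and 8299 in WT, where TMM gave 5358 and 3911. Between genotypes after heat 37 of 16636 genes were called, against 190 by DESeq2, which gave an adjusted p to only 11491 genes. The count was 1028 with the psbA covariate, 24 without the filter, 3 with the block and 6 with library totals. Without heat 4 were called, against 21 of 17781 by DESeq2, 46 with the psbA covariate, 7 with nuclear genes, 1 with the block and 0 with library totals. Leaving out 1 library gave 2 (without atcyp18-2 heat replicate 1 or WT heat replicate 1) to 39 genes after heat, and 0 (without atcyp18-2 control replicate 3) to 10 (without WT control replicate 2) without heat. Leaving out 1 library changed the sign of 44 of 420 fold changes of the 7 genes. With heat in atcyp18-2 these ranges held both signs: AOC2 -0.17 to 1.15 and OPR3 -0.13 to 0.79. With heat in WT these ranges held both signs: AOS -0.35 to 0.11, AOC2 -0.15 to 1.90, OPR3 -0.41 to 0.22 and VSP2 -1.50 to 0.27. For atcyp18-2 over WT after heat these ranges held both signs: AOC1 -0.16 to 0.23, AOC2 -0.28 to 0.34, VSP1 -0.28 to 1.27 and VSP2 -0.71 to 0.16. For atcyp18-2 over WT without heat these ranges held both signs: LOX2 -0.70 to 0.67, AOS -0.53 to 0.37, AOC1 -0.029 to 1.06, AOC2 -0.90 to 1.63, OPR3 -0.62 to 0.38, VSP1 -0.31 to 2.18 and VSP2 -0.014 to 1.78. For the difference of the heat response these ranges held both signs: LOX2 -1.31 to 0.093, AOS -0.82 to 0.096, AOC1 -1.02 to 0.10, AOC2 -1.67 to 0.88, OPR3 -0.043 to 0.99 and VSP1 -2.11 to 0.74. Of 192 refits of called genes in the other lists, 21 no longer passed and 1 changed sign. AOC1 had 3 to 21 and VSP1 2 to 128 reads per library.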
